A study of Caenorhabditis elegans with 15 samples.

Results

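The genes described here are the Hedgehog-related and patched-related genes of *Caenorhabditis elegans*, measured in messenger RNA of whole young adults. They were chosen by name: a gene was a member if its symbol in either annotated table began with *wrt-*, *grd-*, *grl-*, *hog-*, *qua-*, *ptr-* or *ptc-*. This gave 85 of the 21882 genes in the count tables, made up of 31 *grl*, 23 *ptr*, 16 *grd*, 10 *wrt* and 3 *ptc* genes, with *hog-1* and *qua-1*. The study asked whether FBXA-215, an F-box protein with a helix-turn-helix domain derived from a transposon, acts on transcription. The 4 groups were *fbxa-215(syb4404)* mutants (strain SX3678) at 25 °C with 3 libraries, wild-type N2 at 25 °C with 4, *fbxa-215(syb4404)* mutants at 20 °C with 4 and N2 at 20 °C with 4. The allele lacks the whole *fbxa-215* coding sequence. Both strains were kept at 20 °C, their eggs were released by bleach and hatched without food, and the larvae were then raised on HB101 bacteria at the stated temperature. Young adults were collected about 36 h after plating at 25 °C and 48 h after plating at 20 °C, so temperature, hours after plating and count table cannot be told apart. The study calls its mRNA sequencing replicates biological, without saying whether they were separate cultures, so p-values measured the spread between these samples.

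In flies and vertebrates, Hedgehog is a secreted ligand that cuts itself through its Hog domain, takes up cholesterol and binds the membrane protein Patched. *C. elegans* lacks a true Hedgehog and a Smoothened, but carries a large set of related genes. The Warthog (*wrt*) and Ground (*grd*) genes encode secreted proteins, of which some have a Hog domain. The Ground-like (*grl*) genes encode secreted proteins without a Hog domain, while *hog-1* and Quahog (*qua-1*) keep it. The *ptc* genes encode the closest homologs of Patched, and the *ptr* genes encode patched-related proteins with a sterol-sensing domain. In worm larvae many of these genes are known for epidermal and glial expression, for molting and for the apical extracellular matrix, and *ptc-1* is known for its function in the germ line.

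Library totals were 10842747 to 16150451 estimated counts, except for mutant replicate 4 at 20 °C with 28391869. Levels are given as CPM, counts divided by a common library size after scaling by the trimmed mean of M values (TMM). A total of 3 counts, taken here as the floor, was 0.103 to 0.277 CPM per library and covers counting error only. The deleted gene *fbxa-215* had 0 to 2 counts in the 7 mutant libraries, against 1364 to 2297 counts in the 8 N2 libraries. Markers of intestine, muscle, pharynx, neurons, germ line, sperm and oocytes each summed to at least 132 CPM in every library. Since whole animals were sequenced, fewer cells of a type and less RNA per cell cannot be told apart. Reads were not strand-specific, and 26 of the 85 genes share exon bases with another counted gene. The largest overlaps were 41.1% of *wrt-3* and 16.4% of *grd-15*, while *grl-10* shares 18 bases with the ribosomal protein gene *rpl-39*.

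The genes are spread over all 6 chromosomes, and chromosome V holds 32 of them (37.6%), against 26.6% of all annotated genes in the tables. Only 12 of the 85 lie within 2 kb of another member, in 5 runs. One run on chromosome IV holds *grd-13* (3438312 to 3439507), *grd-3* (3439655 to 3440453) and *grd-10* (3441055 to 3441841 in WBcel235), all on the plus strand with gaps of 147 and 601 bases. On chromosome II, *wrt-10* (7533262 to 7534563, minus strand) ends 15 bases from *wrt-1* (7530996 to 7533246, plus strand). On chromosome X, *grd-14* lies 184 bases before *grd-4*. The *ptr* genes have a median exon length of 2965 bases, while the *grl* genes have one of 822 bases, so genes were compared only per kb of exon.

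A few genes carried most of the signal. The summed level of the 85 genes was 1155 to 1347 CPM per library, and *ptc-1*, *ptr-2*, *grd-3* and *grd-5* together made 63.2% of it. Per length, the Ground genes *grd-5* at 197 ± 25.6 and *grd-3* at 181 ± 20.8 CPM per kb were highest (SD, n = 15 libraries). The order of this pair differed between libraries, with *grd-5* above *grd-3* in 9 of 15.

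Next in order came *ptc-1* with 83.4 ± 17.8 CPM per kb, below *grd-3* and above *ptr-2* in all 15 libraries. *ptr-2* (46.1 ± 9.7), *grd-10* (44.6 ± 16.4) and *grl-4* (40.8 ± 10.7 CPM per kb) overlapped in their spread. *grd-14*, *grd-13*, *ptr-24* and *ptr-21* followed at 28.8, 26.4, 21.2 and 21.2 CPM per kb. Of these, *grd-14* was below *grl-4* in all 15 libraries, whereas *grd-14* and *grd-13* exchanged places between libraries.

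**Figure D1:**
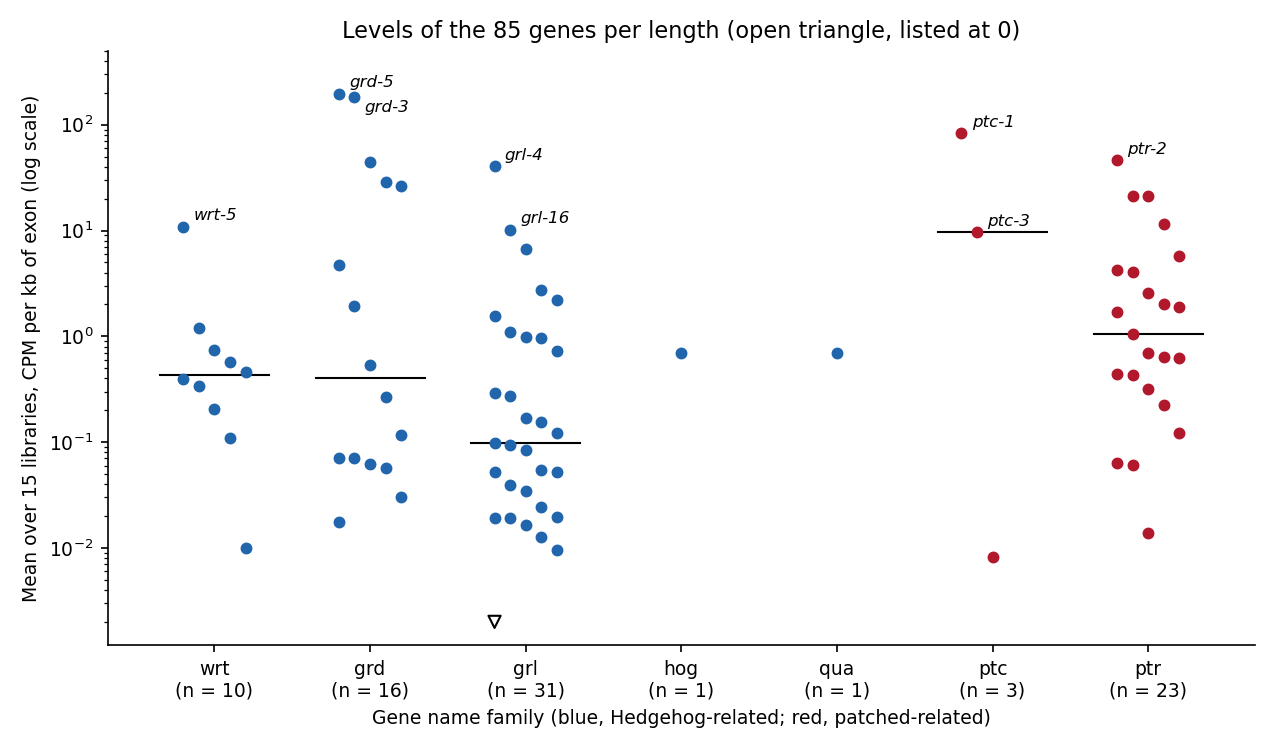
Mean level of each of the 85 genes over 15 libraries, in CPM per kb of exon on a log axis, by gene name family. Each point is a gene, black lines are family medians, and the open triangle is *grl-23*, listed at 0 in every library; the *ptr* median (1.05 CPM per kb) lies above those of *wrt* (0.426), *grd* (0.404) and *grl* genes (0.0978).

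The families differed in how many of their genes were detected. Of the 23 *ptr* genes, 17 had more than 3 counts in every library, against 7 of 16 *grd*, 3 of 10 *wrt* and 3 of 31 *grl* genes. The median level per length was 1.05 CPM per kb for *ptr*, 0.426 for *wrt*, 0.404 for *grd* and 0.0978 for *grl* genes. In all, 32 of the 85 genes had more than 3 counts in every library, 15 had 3 or fewer in every library and *grl-23* was listed at 0 throughout. The Patched pseudogene *ptc-2* was among the 15, with no library above 0.0804 CPM. *hog-1*, with 0.252 to 1.3 CPM, and *ptr-10*, whose promoter marks glia, with 0 to 0.873 CPM, were near the floor in these adults. A low-count filter left 48 of the 85 genes in at least one comparison and 37 in none.

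Some abundant genes gave no call between the strains. *grd-5*, the highest per length, averaged 112 ± 18.3 CPM in mutants (n = 3) and 111 ± 6.14 CPM in N2 (n = 4) at 25 °C, and 93.7 ± 11.6 CPM in mutants and 98.5 ± 12.2 CPM in N2 at 20 °C (SD, n = 4 each). The strains overlapped at both temperatures, with log2 fold changes of 0.02 (SE 0.09, FDR 0.92) at 25 °C and -0.06 (SE 0.11, FDR 0.74) at 20 °C. *ptr-23* averaged 22.9 ± 0.747 CPM in mutants (n = 3) and 19.6 ± 2.29 CPM in N2 (n = 4) at 25 °C, and 19.7 ± 2.74 CPM in mutants and 17.7 ± 4.61 CPM in N2 at 20 °C (SD, n = 4 each).

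*ptr-4*, which functions in the apical extracellular matrix, was low and spread widely. It had 2.1, 1.93 and 1.17 CPM in mutants at 25 °C, against 1.28, 0.545, 0.783 and 0.155 CPM in N2, and the strains overlapped (log2 fold change 1.26, SE 0.47, FDR 0.093). The seam-expressed Warthog gene *wrt-2* had 0 to 0.87 CPM over the 15 libraries, *wrt-8* had 0 to 0.771 CPM, and *grd-1* had 1.48 to 3.45 CPM.

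Among the Hedgehog-related genes, a set was uneven between libraries of the same group, and it is given before the strain comparisons because 2 N2 libraries stood apart. 8 of the 85 genes (9.41%) had 3 or fewer counts in one library and 25 or more in another library of its group, against 188 of all 21882 genes (0.859%). This criterion was set after the values were seen and carries no test. The 8 genes were *grd-6*, *grl-5*, *grl-7*, *grl-16*, *grl-21*, *wrt-4*, *wrt-6* and *qua-1*, of which *grd-6* and *grl-5* are named only for it. *qua-1* is known to be needed for molting.

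*grl-16* had 336, 308 and 404 counts in mutants at 25 °C, against 73, 244, 248 and 2 counts in N2. At 20 °C it had 26, 292, 164 and 812 counts in mutants, against 149, 0, 208 and 341 counts in N2. N2 replicate 4 at 25 °C and N2 replicate 2 at 20 °C were therefore at or near 0 where their sister libraries had up to 248 and 341 counts. In each of these 2 libraries, 7 of the 8 genes had 3 or fewer counts. The 8 genes summed to 59.6, 59.3 and 56.5 CPM in mutants at 25 °C, against 15.7, 32.4, 38.5 and 1.48 CPM in N2. They summed to 14.8, 47.9, 24.4 and 55.8 CPM in mutants at 20 °C, against 19.1, 0.906, 28.1 and 51.6 CPM in N2. The mutant and N2 ranges overlapped at 20 °C and not at 25 °C.

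A few cuticle and hypodermal genes were near 0 in the same 2 libraries, while the sums of the lists they belong to were not. The cuticle collagen gene *dpy-5* had 0.155 CPM in N2 replicate 4 at 25 °C and 0 CPM in N2 replicate 2 at 20 °C, and 4.71 to 25.9 CPM in the other 13 libraries. The collagen gene *dpy-13* had 0.233 CPM and 0.165 CPM in the same libraries. Of the listed genes, 4 of 25 molting and matrix genes (*mlt-11*, *let-4*, *dpy-5* and *rol-6*), 1 of 5 adult cuticle genes (*bli-2*) and 1 of 3 hypodermal genes (*dpy-13*) met the same criterion. Of these, *mlt-11* and *let-4* met it only among the mutants at 20 °C. In the 2 N2 libraries, in the same order, *mlt-11* had 17 and 9 counts and *let-4* had 1 and 7 counts. The hypodermal transcription factor gene *elt-3* did not meet the criterion, with 19.8 and 24.9 CPM in the 2 libraries. The 25 molting and matrix genes summed to 164 CPM in N2 replicate 4 at 25 °C, against 187 to 217 CPM in the other N2 libraries at 25 °C, and to 191 CPM in N2 replicate 2 at 20 °C, against 184 to 239.8 CPM. The 5 adult cuticle genes summed to 2673 CPM, against 2449 to 2987 CPM, and to 1362 CPM, against 1731 to 2338 CPM, in the same order. What part the cuticle signal has in the uneven genes was not tested.

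**Figure D2:**
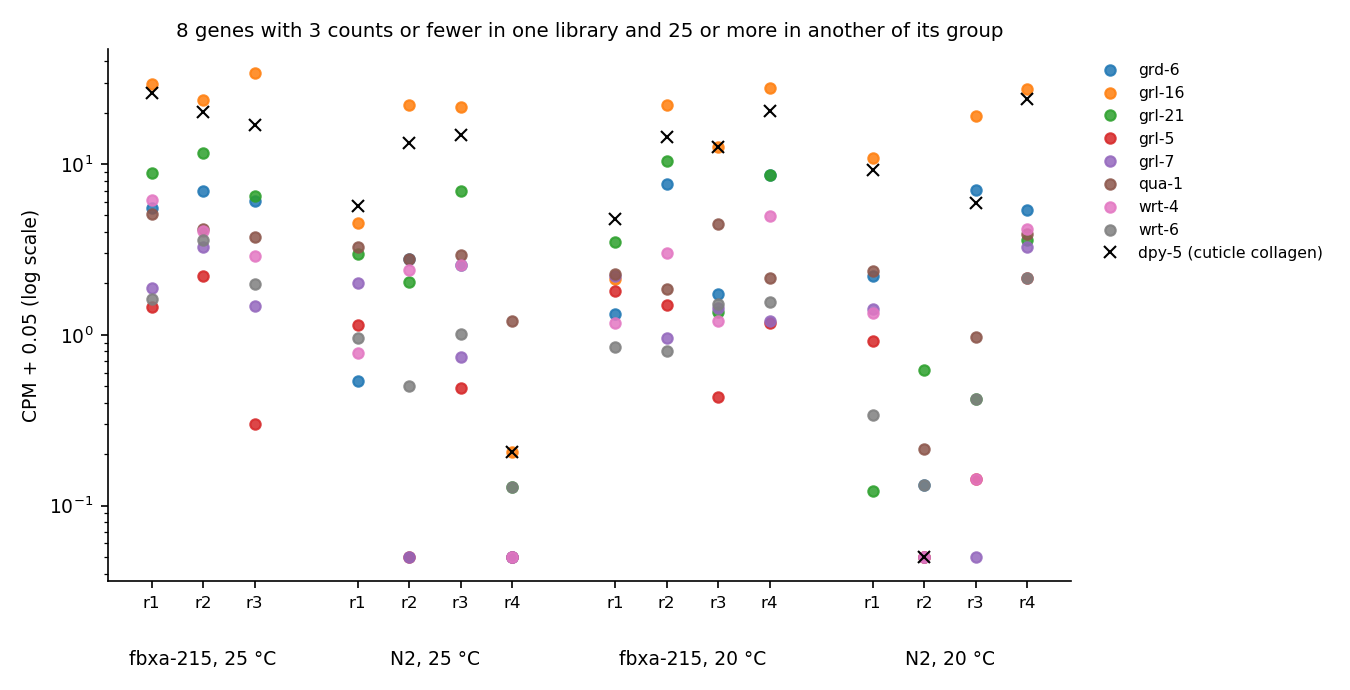
CPM + 0.05 on a log axis for the 8 uneven genes (coloured points) and *dpy-5* (crosses) in every library, by group; points at the bottom are genes at 0 and can lie over each other. N2 replicate 4 at 25 °C (summed 1.48 CPM) and N2 replicate 2 at 20 °C (0.906 CPM) lie below the other 13 libraries (14.8 to 59.6 CPM).

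At 25 °C, 6 of the 44 genes tested differed between mutants and N2. 5 rose in the mutants, the Ground-like gene *grl-4*, the Ground gene *grd-14*, the Warthog gene *wrt-6* and the patched-related genes *ptr-8* and *ptr-18*, while the Ground gene *grd-10* fell (6.98% of all genes rose and 5.13% fell). The test was edgeR's quasi-likelihood test with Benjamini-Hochberg adjustment over all genes (FDR under 0.05), and over all 13538 genes it called 12.1%, so the share of 6 in 44 (13.6%) was near the background. Past both an FDR of 0.05 and a fold of 2 were *wrt-6* and *ptr-18*, with 1.94% of all genes called. Of these, *wrt-6* met the low-count filter through the mutants, the group where it was high.

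*grl-4* had 37.4, 49.1 and 53.5 CPM in mutants at 25 °C, against 29.8, 26.4, 30.4 and 23.8 CPM in N2. Every mutant library was above every N2 library, and the log2 fold change was 0.76 (SE 0.12, FDR 0.0028). This call was kept when each of the 7 libraries was left out in turn.

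*grd-14* had 23.8, 23.4 and 23.2 CPM in mutants, against 10.6, 17.1, 16.3 and 9.86 CPM in N2. The mutant libraries lay close together and above all N2 libraries (log2 fold change 0.81, SE 0.18, FDR 0.015). *grd-10*, known for expression in the seam cells of the epidermis, had 32.2, 19.4 and 26.3 CPM in mutants, against 33.5, 41.7, 43.3 and 41.9 CPM in N2. All mutant libraries were below all N2 libraries, the highest mutant and lowest N2 library being close, and the log2 fold change was -0.63 (SE 0.16, FDR 0.029).

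*wrt-6*, one of the uneven genes, had only 18, 46 and 23 counts in mutants, against 15, 5, 11 and 1 counts in N2. N2 replicates 2 and 4 had under 10 counts, so *wrt-6* was tested only because it was high in the mutants. Its log2 fold change was 1.94 (SE 0.50, FDR 0.027), and in CPM each mutant library was above each N2 library. The patched-related gene *ptr-8* had 11.4, 16.8 and 13.7 CPM in mutants, against 10.1, 9.26, 9.22 and 9.47 CPM in N2 (log2 fold change 0.55, SE 0.15, FDR 0.027). *ptr-8* shares 55 exon bases with *sra-10*. *ptr-18* had 3.41, 3.01 and 2.52 CPM in mutants, against 1.28, 1.91, 1.83 and 0.932 CPM in N2 (log2 fold change 1.02, SE 0.29, FDR 0.036). Neither gene overlapped between the strains.

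These calls other than *grl-4* depended on single libraries. With mutant replicate 2 or 3 left out, 1 gene passed, and with N2 replicate 2 or 4 left out, 3 did. The other 3 libraries gave 5 to 7 genes when left out. *grd-14* lost its call without mutant replicate 2 or 3 (FDR up to 0.073), and *wrt-6* without mutant replicate 2 or 3 or N2 replicate 2 (up to 0.15). *grd-10* and *ptr-8* lost theirs without mutant replicate 2 or 3 or N2 replicate 2, 3 or 4 (up to 0.12 and 0.16), and *ptr-18* without any mutant replicate or N2 replicate 1 or 4 (up to 0.12). In one fit over all 15 libraries *grd-14*, *grd-10*, *ptr-18* and *wrt-6* had FDRs of 0.11, 0.17, 0.060 and 0.088.

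More of the tested genes had values above 0 than below at 25 °C, with or without a call, and the size of this lean depended on low-count genes. The log2 fold change was above 0 for 30 of 44 (68.2%, against 50.5% of all genes), and its median was 0.21, against 0.00 over all genes. Some of the genes tested, *wrt-6*, *wrt-10* and *ptr-4* among them, met the low-count filter through the mutants, where they were high. The lean is therefore a description and no support for a rise in the mutants. For 13 of 44 genes the strains were fully separated, against 24.7% of all genes. For 11 of these 13 the mutants were higher (25.0% of those tested, against 13.5% of all genes), and 5 of the 11 were among the uneven genes. Without N2 replicate 4, which was low for the uneven genes, the median was 0.15, and over the 29 genes with at least 10 counts in every library it was 0.09. The uneven genes *grd-6*, *qua-1* and *wrt-4* did not pass, with log2 fold changes of 2.19 (FDR 0.14), 0.77 (FDR 0.092) and 1.68 (FDR 0.23).

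**Figure D3:**
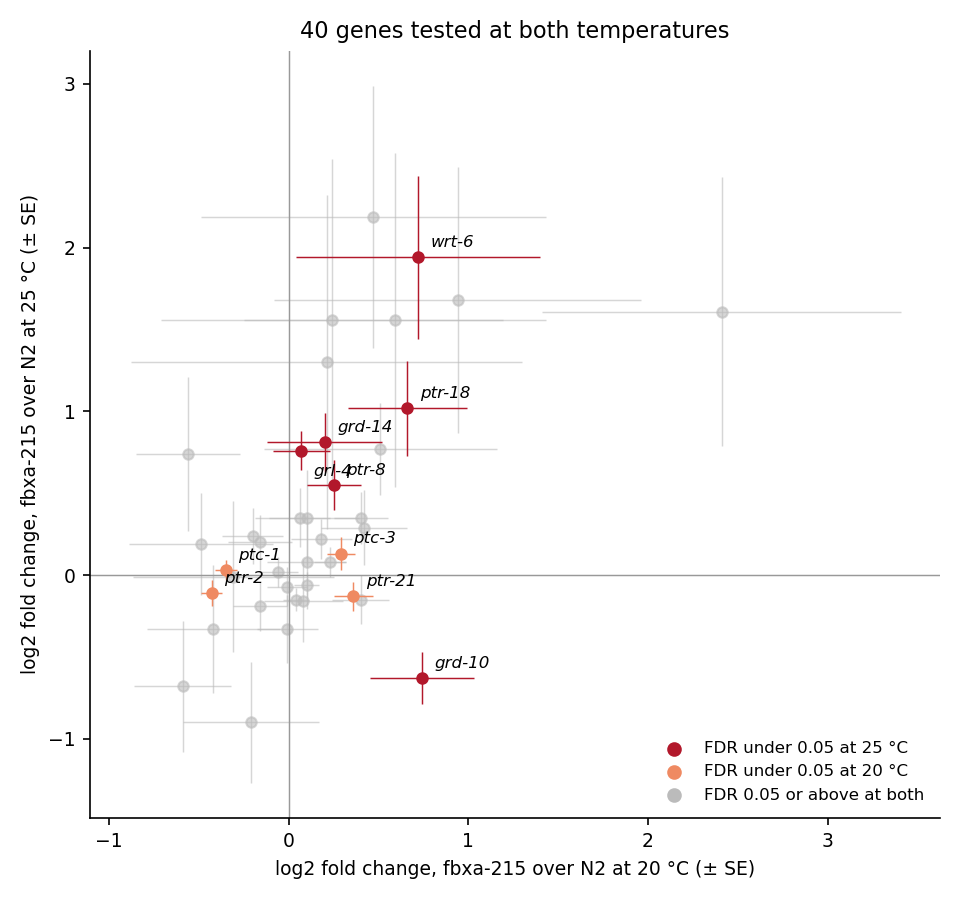
log2 fold change of *fbxa-215* mutants over N2 at 25 °C (vertical) against that at 20 °C (horizontal), with standard errors, for the 40 genes tested at both temperatures; each point is a gene and colours mark FDR under 0.05. By edgeR no gene passed at both, and *grd-10* had -0.63 at 25 °C and 0.74 at 20 °C, of which only the value at 25 °C passed. DESeq2 called *grd-10* at both temperatures, with opposite signs.

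Markers of several tissues were also higher in these mutants at 25 °C. The pharyngeal myosin genes *myo-1* and *myo-2* both rose, with summed levels of 541 to 614 CPM in mutants and 254 to 397 CPM in N2. The 3 hypodermal markers had 0 calls by edgeR, and summed to 56.2 to 64.9 CPM in mutants and 20.4 to 46.0 CPM in N2. The 25 molting and matrix genes summed to 225 to 279.7 CPM in mutants and 164 to 217 CPM in N2, with *mlt-7* passing of 22 tested (log2 fold change 0.56, SE 0.10, FDR 0.0047). The sperm genes *msp-3* and *msp-38* of 4 fell, while *msp-10* (-0.17, FDR 0.13) and *spe-9* (0.31, FDR 0.3) did not pass. Body wall muscle (*myo-3* of 2 passed), neurons (*rab-3* and *snb-1* of 3) and sheath glia (*vap-1* of 3 tested) also had higher mutant sums. For glia the sums were 36.8 to 39.0 CPM in mutants and 27.2 to 33.3 CPM in N2. The other neuron gene, *unc-119*, did not pass, with a log2 fold change of -0.19 (FDR 0.5). The summed ranges of these 6 lists and of the sperm genes did not overlap between the strains. Their part in the differences of the members was not tested. The sums of the excretory canal, seam cell and adult cuticle lists overlapped between the strains at 25 °C. Intestine genes were mixed at 25 °C, *elt-2* rising (log2 fold change 0.65, FDR 0.015) and *ges-1* falling (-0.34, FDR 0.029) in the mutants. Of the 3 germ line genes, *glh-1* fell (-0.30, FDR 0.025), while *pgl-1* (-0.23, FDR 0.074) and *gld-1* (0.14, FDR 0.21) did not pass. The germ line sums overlapped, with 1639.9 to 1709 CPM in mutants and 1702 to 1834 CPM in N2.

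At 20 °C, 4 of the 42 genes tested differed, all of them patched or patched-related. The 42 were 17 *ptr*, 2 *ptc*, 8 *grd*, 8 *grl* and 6 *wrt* genes with *qua-1*, and families were not compared by a test. *ptc-1* and *ptr-2*, the most abundant of the receptor-like genes, fell in the mutants (5.77% of all genes fell), and *ptc-3* and *ptr-21* rose (7.71% of all genes rose). Over all 13127 genes the same test called 13.5%, so the share of 4 in 42 (9.52%) was not above the background. No Hedgehog-related gene passed by edgeR at 20 °C, while *grd-10*, *wrt-5* and *grl-21* had an unadjusted p under 0.05 and DESeq2 called *grd-10*. None of the 42 passed both an FDR of 0.05 and a fold of 2 by edgeR (1.49% of all genes did) or by DESeq2, and 1 had an unadjusted p under 0.05 with a fold above 2, the uneven gene *grl-21*. *grl-21* met the low-count filter through the mutants, where it was high.

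*ptc-1*, required for cytokinesis in the germ line, had 430.1, 424, 434 and 426 CPM in mutants at 20 °C, against 569, 589, 549 and 507 CPM in N2. The mutant libraries lay between 424 and 434 CPM, below every N2 library. The log2 fold change was -0.35 (SE 0.06, FDR 0.0066), a fold of 0.783. *ptr-2* had 127, 125, 125 and 139 CPM in mutants, against 174, 186, 181 and 163 CPM in N2. It too was lower in every mutant library, with a log2 fold change of -0.43 (SE 0.06, FDR 0.0032). Both calls were kept when each of the 8 libraries was left out in turn, with FDRs up to 0.031 for *ptc-1* and 0.019 for *ptr-2*.

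*ptc-3*, an essential Patched homolog, had 44.5, 42.1, 46.1 and 43.9 CPM in mutants at 20 °C, against 36.4, 33.3, 36.0 and 39.9 CPM in N2. The groups did not overlap, and the log2 fold change was 0.29 (SE 0.08, FDR 0.030). *ptr-21* had 74.8, 70.7, 67.0 and 64.7 CPM in mutants, against 65.8, 50.4, 44.2 and 57.2 CPM in N2. Here N2 replicate 1 lay above mutant replicate 4, and the log2 fold change was 0.36 (SE 0.11, FDR 0.047). Strains were separated for 5 of 42 genes, against 21.3% of all genes. *ptr-21* lay at the threshold, with an FDR of 0.052 on DESeq2-type size factors, and its call ended without any of mutant replicates 1 to 3 or N2 replicates 2 to 4 (FDR up to 0.13). The call of *ptc-3* ended without any of replicates 1 to 3 of either strain (up to 0.090), and 2 genes passed with mutant replicate 1, 2 or 3 or N2 replicate 2 or 3 left out. The other 3 libraries gave 3 to 5 genes. The median log2 fold change at 20 °C was 0.10, against 0.01 over all genes, and 0.01 with mutant replicate 4 left out, and 28 of 42 values (66.7%) were above 0, against 51.8% of all genes.

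**Figure D4:**
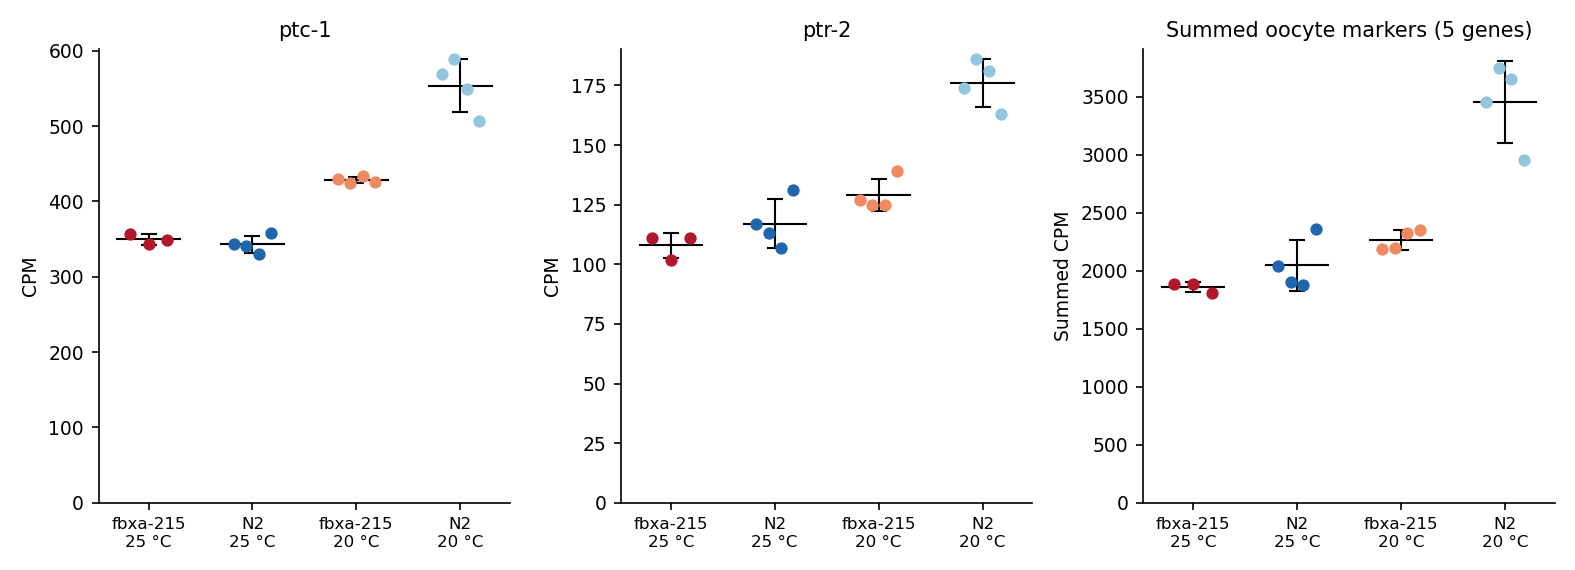
CPM of *ptc-1* and *ptr-2* and summed CPM of 5 oocyte markers in each library (points), with group mean (line) and SD (bars), by strain and temperature. Mutants at 20 °C lie below N2 at 20 °C in all 3 panels, while at 25 °C the mutant and N2 libraries overlap.

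Oocyte markers and the seam cell gene *egl-18* were lower together with *ptc-1* and *ptr-2*. All 5 of *oma-1*, *oma-2*, *rme-2*, *puf-5* and *cbd-1*, genes of growing oocytes and the eggshell, fell in mutants at 20 °C, with log2 fold changes of -0.77 to -0.39. Their summed level was 2186 to 2349.7 CPM in mutants at 20 °C and 2953 to 3751 CPM in N2. The germ line genes *pgl-1*, *glh-1* and *gld-1* gave 0 calls of 3 by edgeR at 20 °C, with summed levels of 1987 to 2043 CPM in mutants and 1992 to 2248 CPM in N2. Of the 5 early embryo markers, *end-1*, *med-1*, *tbx-35* and *pes-10* had 3 or fewer counts in every library. *egl-18* fell too (log2 fold change -0.68, SE 0.14, FDR 0.011). The summed seam list had 12.9 to 15.9 CPM in mutants and 19.2 to 29.3 CPM in N2. This sum was mostly *egl-18*, the 1 seam gene tested, with *nhr-73* and *ceh-16* near the floor. Markers that rose in mutants at 20 °C, as *ptc-3* and *ptr-21* did, were *vap-1* of sheath glia (FDR 0.0086), *aqp-8* of the excretory canal (FDR 0.031), *elt-2* of the intestine (FDR 0.019), *myo-2* of the pharynx (FDR 0.033) and the adult cuticle gene *col-7* (FDR 0.039). The other intestine genes did not pass by edgeR, with *vit-2* at -0.23, *vit-6* at -0.24 and *ges-1* at 0.13. The intestine list summed to 34087 to 41835 CPM in mutants and 40806 to 49035 CPM in N2, with the strains overlapping. The summed glial list had a median of 32.5 CPM in mutants and 23.1 CPM in N2, and the strains did not overlap. The part of these tissue signals in the values of the 4 genes was not tested.

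At 25 °C neither *ptc-1* nor *ptr-2* passed between the strains. *ptc-1* had 357, 343 and 349 CPM in mutants, against 344, 341, 330.4 and 358 CPM in N2, and the groups overlapped (log2 fold change 0.03, SE 0.06, FDR 0.81). *ptr-2* had 111, 102 and 111 CPM in mutants, against 117, 113, 107 and 131 CPM in N2 (log2 fold change -0.11, SE 0.08, FDR 0.35). Of the oocyte markers, 2 of 5 fell at 25 °C (*puf-5* and *rme-2*), with summed levels of 1811 to 1888 CPM in mutants and 1877 to 2361 CPM in N2.

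The change in the strain difference between the temperatures was tested as an interaction, the log2 fold change of mutants over N2 at 25 °C minus that at 20 °C. Of 48 genes tested, *ptc-1* alone passed by edgeR (0.39, SE 0.08, FDR 0.030), with 1.46% of 14000 genes called. Among the oocyte markers, *oma-2* (0.61, FDR 0.034) and *cbd-1* (0.69, FDR 0.032) passed the same test. *ptr-2* (0.33, FDR 0.071), *grd-10* (-1.34, FDR 0.076), *ptr-21* (-0.47, FDR 0.084) and *grl-4* (0.69, FDR 0.098) did not pass, and DESeq2 called these 4 with *ptc-1*. The call of *ptc-1* rested on 8 single libraries, and leaving out any one of them gave 0 genes and an FDR of up to 0.097 for *ptc-1*. At 25 °C these were replicates 2 and 3 of both strains, and at 20 °C replicates 1 and 2 of the mutants and replicates 2 and 3 of N2. The count was 4 with mutant replicate 1 at 25 °C or mutant replicate 4 at 20 °C left out, and 2 with N2 replicate 1 at 20 °C left out.

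Between the temperatures, 10 of 48 genes changed in N2, against 45.1% of 14000 genes. These comparisons share their libraries with the strain comparisons. In N2 at 25 °C, the Ground genes *grd-10*, *grd-13* and *grd-3*, the Ground-like gene *grl-10*, the Warthog gene *wrt-5*, and *ptr-21*, *ptr-24* and *ptc-3* rose, while *ptc-1* and *ptr-2* fell. In all 10 the 25 °C libraries lay apart from the 20 °C libraries, as did 11 of the 48 genes tested and 40.5% of all genes. *wrt-5* encodes a secreted protein with a known role in embryonic morphogenesis.

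Among the genes that passed, *grd-10* had the largest change, with 33.5, 41.7, 43.3 and 41.9 CPM in N2 at 25 °C, against 22.6, 12.4, 14.2 and 20.3 CPM in N2 at 20 °C (log2 fold change 1.20, SE 0.26, FDR 0.0027). It was the one gene past both thresholds in N2, with 6.59% of all genes called. Its neighbours *grd-3* and *grd-13* had log2 fold changes of 0.33 (SE 0.07, FDR 0.0013) and 0.52 (SE 0.10, FDR 0.00059). All 3 genes of the run on chromosome IV thus rose in N2.

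*grl-10* and *wrt-5* had log2 fold changes of 0.84 (SE 0.23) and 0.46 (SE 0.15). *ptr-21* had 89.6, 91.3, 88.0 and 76.2 CPM in N2 at 25 °C (log2 fold change 0.66, SE 0.10, FDR 7.5e-05), all above the values in N2 at 20 °C. *ptr-24* and *ptc-3* had 0.31 (SE 0.06) and 0.30 (SE 0.08). The call of *ptc-3* ended without N2 replicate 2 at 20 °C (FDR 0.051) and that of *wrt-5* without N2 replicate 3 at 20 °C (FDR 0.054). *ptc-1* averaged 344 ± 11.5 CPM in N2 at 25 °C and 553 ± 35.1 CPM in N2 at 20 °C (SD, n = 4 each), a log2 fold change of -0.69 (SE 0.05, FDR 5.2e-08). *ptr-2* averaged 117 ± 10.4 CPM in N2 at 25 °C and 176 ± 9.72 CPM in N2 at 20 °C (log2 fold change -0.59, SE 0.07, FDR 3.4e-06). All 5 oocyte markers fell in the same comparison, as did *egl-18* (-0.99, FDR 1.7e-05).

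In mutants, 5 of 48 genes changed between the temperatures, against 25.5% of all genes, 3 of them higher at 25 °C (13.6% of all genes) and 2 lower (11.9%). The Warthog gene *wrt-10* had the largest change among them and was the one gene past both thresholds (3.17% of all genes). *wrt-10* is known as an epidermal Hedgehog-related gene linked through patched genes to the ageing of the reproductive system. It had 2.1, 1.85 and 1.09 CPM in mutants at 25 °C, against 0.239, 0.227, 0.768 and 0.582 CPM in mutants at 20 °C (log2 fold change 1.81, SE 0.47, FDR 0.0084). These were 24, 24 and 13 counts at 25 °C, against 3, 3, 10 and 17 counts at 20 °C, and the groups did not overlap in CPM. Outside the mutants at 25 °C, only N2 replicate 4 at 20 °C (1.29 CPM) and N2 replicate 3 at 25 °C (1.22 CPM) exceeded 1.09 CPM. *wrt-10* thus met the low-count filter through the group where it was high, and its change is given as a description only. In N2 *wrt-10* had a log2 fold change of 0.22 (SE 0.48, FDR 0.74), and the interaction was 1.59 (SE 0.67, FDR 0.16).

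*grd-13* (0.47, SE 0.11, FDR 0.0042) and *grl-4* (0.53, SE 0.17, FDR 0.029) also had higher levels in mutants at 25 °C on the log2 scale. For *grl-4* mutant replicate 1 at 25 °C (37.4 CPM) lay below mutant replicate 4 at 20 °C (42.2 CPM), and the call ended without any of mutant replicates 1 to 3 at 20 °C or mutant replicates 2 and 3 at 25 °C (FDR up to 0.14), with no low-count filter (FDR 0.052) and with only the 2 mutant groups fitted (FDR 0.079). *ptc-1* averaged 349.6 ± 7.2 CPM in mutants at 25 °C (n = 3) and 429 ± 4.32 CPM in mutants at 20 °C (n = 4), a log2 fold change of -0.29 (SE 0.06, FDR 0.0015). *ptr-2* averaged 108 ± 5.28 CPM at 25 °C and 129 ± 6.81 CPM at 20 °C (log2 fold change -0.25, SE 0.07, FDR 0.016), and lost its call without mutant replicate 2 at 25 °C (FDR 0.091), where 3 genes passed, and with library size alone (FDR 0.053). Of the oocyte markers, 4 of 5 fell in the mutants, *oma-1* being the exception.

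**Figure D5:**
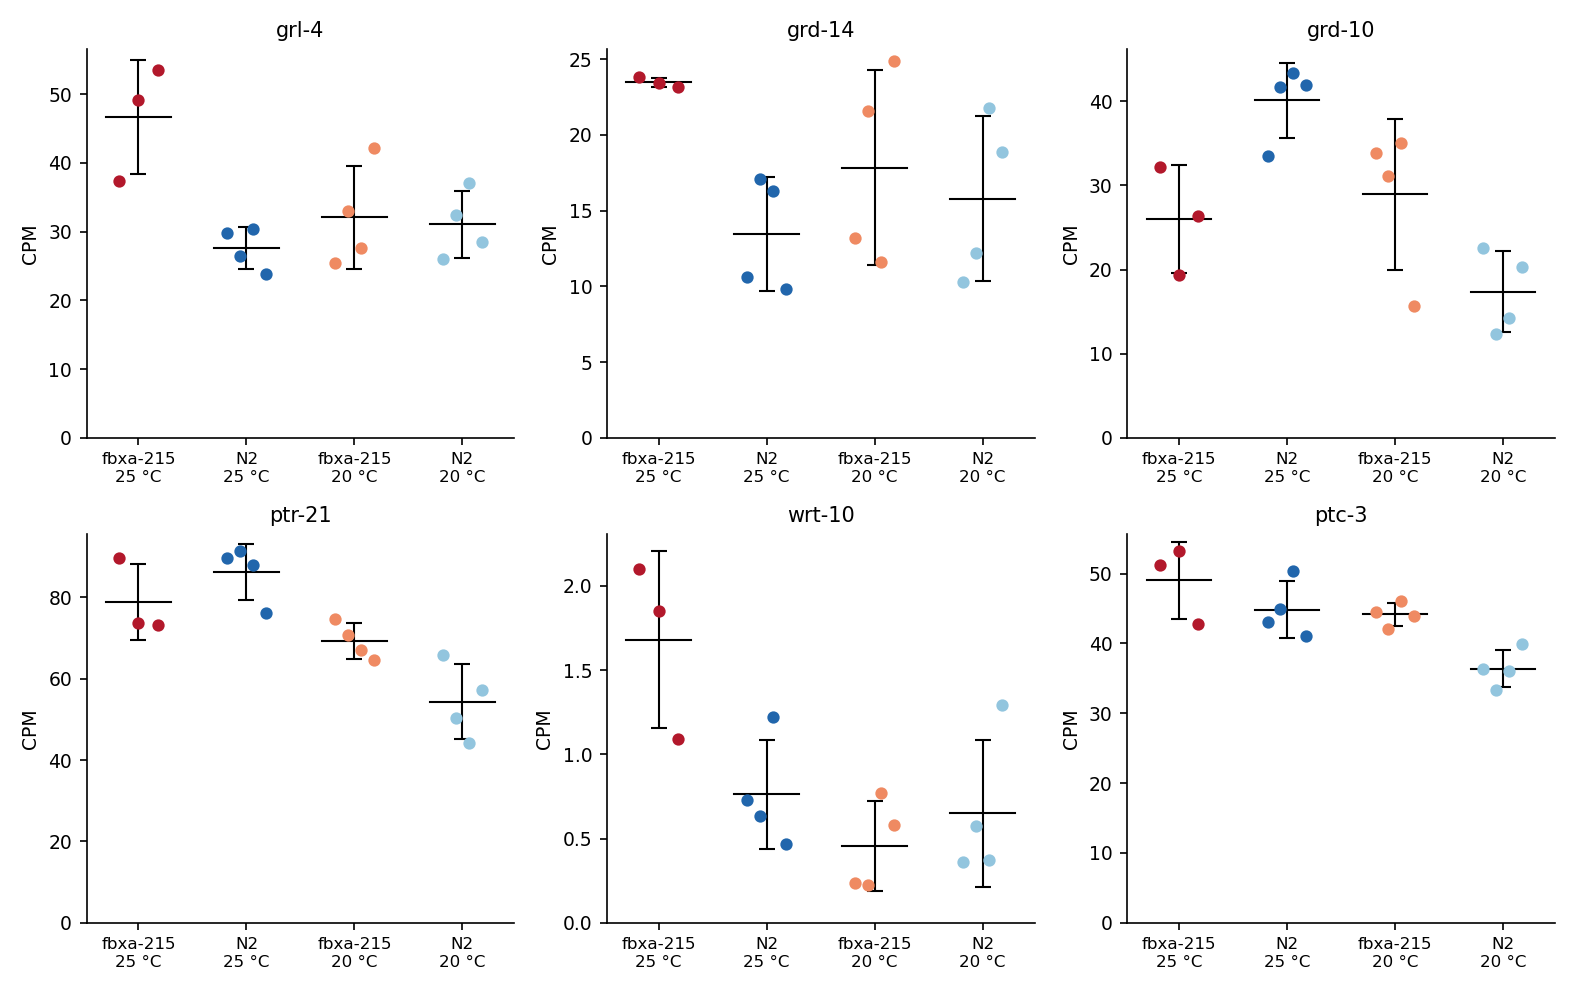
CPM of *grl-4*, *grd-14*, *grd-10*, *ptr-21*, *wrt-10* and *ptc-3* in each library (points), with group mean (line) and SD (bars), by strain and temperature. *grl-4* averaged 46.6 CPM in mutants at 25 °C and 27.6 CPM in N2, while *grd-10* averaged 26.0 CPM in mutants at 25 °C and 40.1 CPM in N2.

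Genes of the pathway outside the name rule gave no call between the strains. The list held 11 genes, among them the Dispatched-like *che-14*, the patched-related *daf-6*, the Niemann-Pick homologs *ncr-1* and *ncr-2*, the Gli homolog *tra-1* and the megalin homolog *lrp-1*. None of 8 tested at 25 °C and none of 6 tested at 20 °C passed between the strains by edgeR, with 2 and 0 at an unadjusted p under 0.05 and 0 by DESeq2 at either temperature. In N2, *ncr-2* (log2 fold change 0.56, SE 0.14, FDR 0.0034) and *lrp-1* (0.29, SE 0.07, FDR 0.0037) rose at 25 °C, and in mutants *phg-1* did (1.30, SE 0.46, FDR 0.044). The *phg-1* call was lost with DESeq2, which called 0 of the 11 in mutants. *phg-1* met the low-count filter through the mutants at 25 °C, where it was high. Their summed level was 223 to 239 CPM in mutants and 216 to 255 CPM in N2 at 25 °C, and 209 to 229 CPM in mutants and 203 to 221 CPM in N2 at 20 °C, so the strains overlapped at both temperatures.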

How the data were processed

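Poly(A) libraries, not strand-specific, were made from young adults in 15 samples. The authors trimmed reads with Trimmomatic 0.39 and quantified genes with Salmon 1.5.1 against WBcel235; the transcript release is not given in the sources used here. They deposited 1 table of estimated counts per temperature, not normalized, of which 91.1% of values were whole. Values were rounded before fitting. They also deposited 1 DESeq2 table per temperature, which holds log2 expression values per library, a mean normalized signal, and the log2 fold change and adjusted p-value of the authors' own strain comparison. Only gene identifiers and symbols were read from it. 0 columns could not be assigned to a sample.

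Counts were scaled by TMM and tested with edgeR 4.0.16 (robust glmQLFit and glmQLFTest) in R 4.3.3 after filterByExpr (minimum count 10, total 15), with Benjamini-Hochberg adjustment over all genes. Strain comparisons used the libraries of 1 temperature, and the interaction and temperature comparisons used 1 fit over 15 libraries. The fit was tested on simulated data. Exon lengths and positions came from Ensembl release 115 (WBcel235), in which 21714 of 21882 genes were found. Totals of 10842747 to 28391869 counts set the precision, and no libraries of a group were duplicates.

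Named genes were those passing a strain comparison, those with the largest temperature changes or the smallest interaction p-values, the 3 highest per length in *wrt*, *grd*, *grl* and *ptr*, all *ptc*, *hog* and *qua* genes, and members with a known role. Members and gene lists were chosen with earlier results of these data known. Same-numbered libraries of the 2 strains were not treated as pairs, and the sources used here do not say whether they were handled together. Their deviations correlated from -0.255 to 0.137 over 7 pairs. Alternatives were other size factors, DESeq2 1.42.0, other low-count filters, a replicate block, other sets of libraries in the fit, a fold threshold, and each library left out. Promoter and protein sequences were not analysed here.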

Additional observations from a re-analysis of the deposited data

Results flagged for a closer look

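In groups of 4 libraries, 7 values of named genes lay far from the other 3, of 78 groups checked by Dixon's criterion at its 95% critical value, which chance exceeds in about 1 of 20 groups. *ptr-2* had 139 CPM in mutant replicate 4 at 20 °C, against 125 to 127 CPM in the others, and *qua-1* had 4.38 CPM in mutant replicate 3 at 20 °C, against 1.81 to 2.23 CPM. At 25 °C in N2, *grd-10* had 33.5 CPM in replicate 1, against 41.7 to 43.3 CPM. *grd-3* had 125 CPM in replicate 3, against 144 to 145 CPM. *hog-1* had 1.3 CPM in the same library, against 0.608 to 0.636 CPM. At 20 °C in N2, replicate 4 was high for *grl-21* (3.54 CPM, against 0.0722 to 0.576 CPM) and *wrt-6* (2.09 CPM, against 0.0823 to 0.37 CPM), both among the uneven genes.

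The strain effect on *ptc-1* differed between the temperatures by 0.39 on the log2 scale (edgeR interaction, FDR 0.030). The mutants were lower in 4 of 4 libraries at 20 °C and overlapped N2 at 25 °C. With each library left out in turn, the call was kept in 7 of 15 fits (FDR up to 0.097), and a replicate block ended it (FDR 0.079).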

How the results depend on the processing

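Of the single-gene calls, none changed sign under any alternative. With a fold threshold of 2 added, 2 genes passed between the strains at 25 °C, 0 at 20 °C and 0 in the interaction, and 1 passed between the temperatures in each strain. One fit over all 15 libraries gave 2 genes at 25 °C, *grl-4* and *ptr-8*, in place of 6, and DESeq2 gave 5 genes in the interaction in place of 1. DESeq2 gave no adjusted p-value for 26 of the 48 genes in the interaction, so its 5 calls come from a smaller set. With at least 10 counts in every library, the median interaction over the 27 genes left was 0.00, against 0.29 over 48. The same filter gave a median of 0.09 over 29 genes at 25 °C, against 0.21 over 44. Leaving out 1 library at a time, the genes passing numbered 1 to 7 at 25 °C, 2 to 5 at 20 °C, 0 to 4 in the interaction, 9 to 11 between the temperatures in N2 and 3 to 5 in mutants. Their medians ranged from 0.15 to 0.33, from 0.01 to 0.18, from 0.00 to 0.41, from -0.09 to 0.25 and from 0.20 to 0.35.

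The replicate number was not used as a pairing in the main fits, and 0 of 7 mutant libraries correlated best with the N2 library of its number. These correlations cannot show whether same-numbered samples were handled together. With a replicate block, 1 gene passed at 25 °C (*grl-4*), 2 at 20 °C (*ptc-1* and *ptr-2*), 0 in the interaction, 10 between the temperatures in N2 and 5 in mutants. Genes under about 10 counts per library, among them most *grl* genes, were not tested, and differences in them were not detectable at this depth.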
